A study of Arabidopsis thaliana with 4 samples.

Results

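SMXL6 peaks that sit beside genes are described here: peaks found in both replicates whose midpoint lay outside every nuclear protein-coding gene but no more than 1000 bp from the nearest gene end. They were chosen from the second of 2 deposited peak lists. Of its 1442 peaks, 1077 (74.7%) overlapped a peak of the first list by at least 1 bp, and 451 of these replicated peaks (41.9%) met the position rule. They are called flanking peaks below. Of the other replicated peaks, 392 (36.4%) were centred inside a gene and 234 (21.7%) lay farther than 1000 bp from one.

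The lists come from chromatin immunoprecipitation and sequencing (ChIP-seq) of whole Arabidopsis thaliana seedlings aged 2 weeks, with a polyclonal antibody against the HA tag. There were 4 libraries. In 2 of them the plants were smxl6/7/8 triple mutants that carried the transgene pSMXL6:SMXL6-HA, that is, tagged SMXL6 driven by the SMXL6 promoter. The other 2 were the smxl6/7/8 triple mutant without the transgene, which served as the control, so all plants lacked the endogenous functions of the 3 genes. Seedlings were grown with 16 h of light a day at 21 ºC. The labels give 1 transgenic genotype and do not say whether replicates were separate cultures, so agreement between the lists may be technical.

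List 1 set replicate 1 of the transgenic plants against control replicate 1, and list 2 did the same for replicate 2. Each peak carries a score, which is the authors' own value on a scale that is not stated, and it was used to rank peaks within a list. Coordinates are those of the lists, in the build TAIR10. Read depth is unknown and the files hold no reads, so each replicate pair gives 1 score per peak and no test between groups could be run. The values below are descriptions. Overlap and position chose the peaks, and scores come from the same contrast.

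SMXL6 is a nuclear repressor of strigolactone signalling. When the receptor D14 perceives the hormone, SMXL6 is marked for degradation with the F-box protein MAX2, and the genes it held back are released. It works with TOPLESS corepressors, and it can reach DNA through transcription factors or bind it. In the compact Arabidopsis genome, many of the sequences that control a gene lie in the short gap between it and its neighbour. Gene strand was not used here, so the end nearest to a peak may be the start or the finish of its gene. Splits into promoter and downstream sides, and into divergent, tandem and convergent neighbours, were not analysed here. A peak is called above or below a gene by its chromosome coordinate.

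Replicated midpoints were denser beside genes than inside them, and about equally dense just beyond the limit of 1000 bp. Bases outside genes and within 1000 bp of one make up 24.3 Mb, or 20.4% of the 5 nuclear chromosomes, and held 18.6 replicated midpoints per Mb. Bases inside genes held 6.08 per Mb and all bases farther out 7.71 per Mb. Within 2 Mb of the points of lowest gene density lay 5 flanking peaks. The share of the bases of this class found there was not counted, and the part of these regions in the densities was not tested. Gene edges did not bound the signal sharply. From 1 to 100 bp outside an edge there were 22.7 midpoints per Mb (96 peaks), and from 1 to 100 bp inside there were 17 (81 peaks). Going deeper into genes the density was 9.56 per Mb at 400 to 500 bp and 2.81 per Mb at 900 to 1000 bp.

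**Figure D1:**
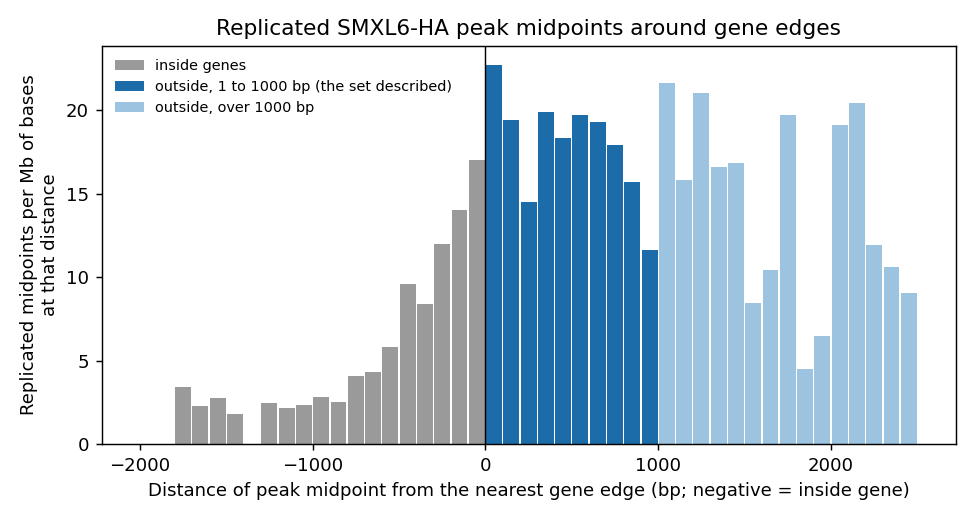
Density of replicated peak midpoints (vertical axis, midpoints per Mb of bases at that distance) by distance from the nearest edge of a protein-coding gene (horizontal axis, bp, negative inside genes), in steps of 100 bp. Dark blue bars are the flanking peaks; density is 22.7 per Mb next to the edge and 2.81 per Mb at 900 to 1000 bp inside genes.

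Nor did the limit of 1000 bp mark a natural border. The step from 900 to 1000 bp held 16 midpoints (11.6 per Mb), and the next step, from 1000 to 1100 bp, held 27 (21.6 per Mb). Each step of 100 bp from 1000 to 1500 bp held 15.8 to 21.6 per Mb, inside the range of 11.6 to 22.7 over the steps of the flanking class, so this density was not particular to the flanking peaks. Just inside the limit lay peaks at TPS11, a trehalose-phosphate synthase gene (986 bp, scores 282.93 in list 1 and 223.47 in list 2), AT5G40470 (983 bp, 176.05 and 275.49) and the homeobox gene KNAT3 (983 bp, 913.3 and 94.78). Just beyond it lay replicated peaks at PPa3 (1003 bp, 86.34 and 81.89), DIN10 (1005 bp, 98.35 and 84.16) and RSZ21 (1007 bp, 571.39 and 438.64). At the inner border, midpoints stood 2 bp outside AT2G39650, AT4G33440 and DGR2, and 1 bp inside AT4G08550, AFP3 and AT5G12043. Among the flanking peaks, the smallest overlap with list 1 was 664 bp, which is the whole width of the KNAT3 peak.

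The median distance from midpoint to gene end was 335 bp, with quartiles at 122 and 590 bp. There were 164 flanking peaks (36.4%) within 200 bp of a gene and 40 (8.87%) at 801 to 1000 bp. Relative to the bases on offer, the density ran from 21.2 per Mb in the first of these bands to 13.8 per Mb in the last, with 17 to 18.9 per Mb in between. Peaks stood above the nearest gene in 243 cases (53.9%) and below it in 208, where bases are split evenly (50% above).

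Most flanking peaks were not confined to the gap. The list 2 peak ran into the nearest gene in 366 of 451 cases (81.2%), by a median of 488 bp and at most 1563 bp. It touched both neighbouring genes in 86 cases (19.1%) and neither in 85 (18.8%). In list 2, 68.4% of the bases under these peaks lay outside genes, and 391 of the peaks (86.7%) had over 50% of their length there. The midpoint rule largely sets these shares. A peak centred in a gap that does not reach both neighbours has most of its length outside genes. The list 1 peaks are broader, with a median width of 3026 bp against 1270 bp. They touched both neighbours at 193 flanking peaks (42.8%) and neither at 16 (3.55%), and 52.1% of their bases lay outside genes.

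The broader list 1 intervals also blurred the position itself. The list 2 peak lay wholly inside its list 1 peak in 431 cases (95.6%), but the midpoints of the pair stood a median of 368 bp apart. By its list 1 midpoint, a flanking peak was again within 1000 bp outside a gene in 257 cases (57.0%), inside a gene in 157 (34.8%) and farther out in 37 (8.2%). The nearest gene was the same, with the list 1 midpoint outside genes, for 238 of them (52.8%). Of the 434 list 1 peaks involved, 17 each held 2 flanking peaks, so 34 flanking peaks share their list 1 score with another.

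Scores of flanking peaks ran from 50.01 to 1949 in list 1, with a median of 127, and from 20.72 to 2301.27 in list 2, with a median of 111. Medians were 122 and 102 for replicated peaks centred inside genes, and 143 and 102 for those farther out. Both scores reached 100 at 194 flanking peaks (43.0%), against 39.5% inside genes and 43.2% farther out. Among the 100 highest peaks of list 2, 39 were flanking peaks, 33 replicated peaks inside genes and 26 farther out, and 2 were not replicated. These classes thus lay close together in score, and no test of their differences was run.

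Overlap with list 1 was found for 451 of the 572 list 2 peaks in the flanking class (78.8%), for 68.3% of those inside genes and for 79.1% of those farther out. Put the other way, of the 365 list 2 peaks without a list 1 partner, 33.2% were flanking, 49.9% inside genes and 17% farther out. The 121 flanking positions found in list 2 alone had a median score of 70.1, and only 12 of them (9.92%) had a list 1 peak within 1000 bp.

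**Figure D2:**
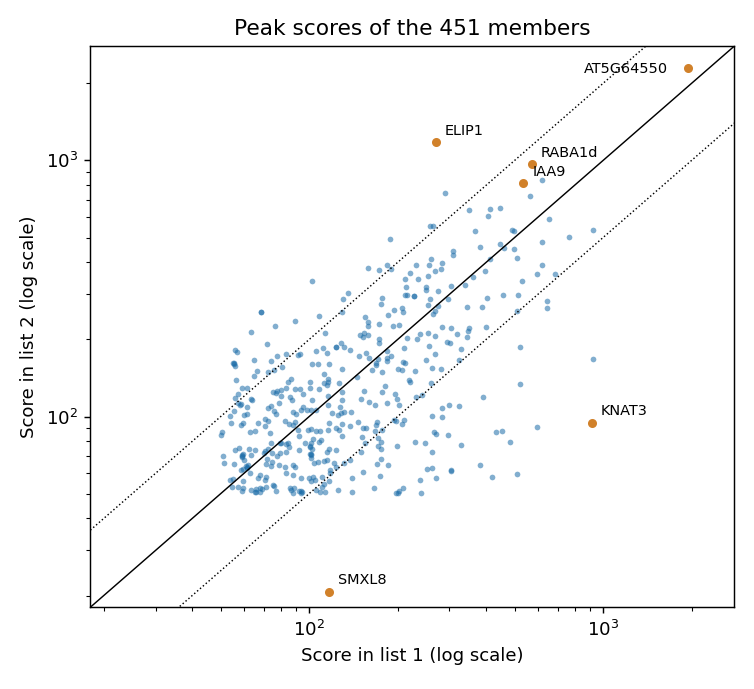
Score in list 1 (horizontal axis) against score in list 2 (vertical axis) for the 451 flanking peaks, both on log scales; the solid line marks equal scores and the dotted lines a ratio of 2. Orange points are named: AT5G64550 is highest in both lists, ELIP1 and KNAT3 are the extremes of the ratio, and SMXL8 has the lowest list 2 score.

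Set side by side, the scores in the 2 lists differed considerably. The list 1 score is that of the whole list 1 peak over the flanking peak, which is mostly broader and can be centred elsewhere. A ratio of scores can therefore compare unlike intervals, and the part of this in the ratios was not tested. Scores stood within 2-fold of each other at 349 flanking peaks (77.4%), and the ratio of list 2 to list 1 had a median of 0.936, with quartiles at 0.621 and 1.37. Spearman's rho was 0.523 over the 451 peaks, which share libraries and in part list 1 peaks. The farthest ratios, singled out after the values were seen, were 4.37 at ELIP1, which encodes an early light-induced protein of the chloroplast (269.5 and 1176.47), and 0.104 at KNAT3, where the list 2 peak was also the narrowest of all at 664 bp. Wider list 2 peaks had higher list 2 scores (rho 0.523), while distance to the gene and score were nearly unrelated (rho -0.03 in list 2 and 0.18 in list 1).

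Gaps between genes of every length held flanking peaks. The 451 peaks lay in 434 of 23810 gaps (1.82%), 417 of them with 1 peak and 17 with 2. Gaps with a flanking peak had a median length of 2245 bp, and all gaps 877 bp. The share of gaps with a flanking peak was 0.176% for gaps up to 250 bp, 1.08% for 501 to 1000 bp and 4.03% for 2001 to 4000 bp. Longer gaps offer more bases, though, and per Mb of bases within 1000 bp of a gene the values stayed between 14.8 and 21.9 in all 6 length classes, without a steady trend.

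**Figure D3:**
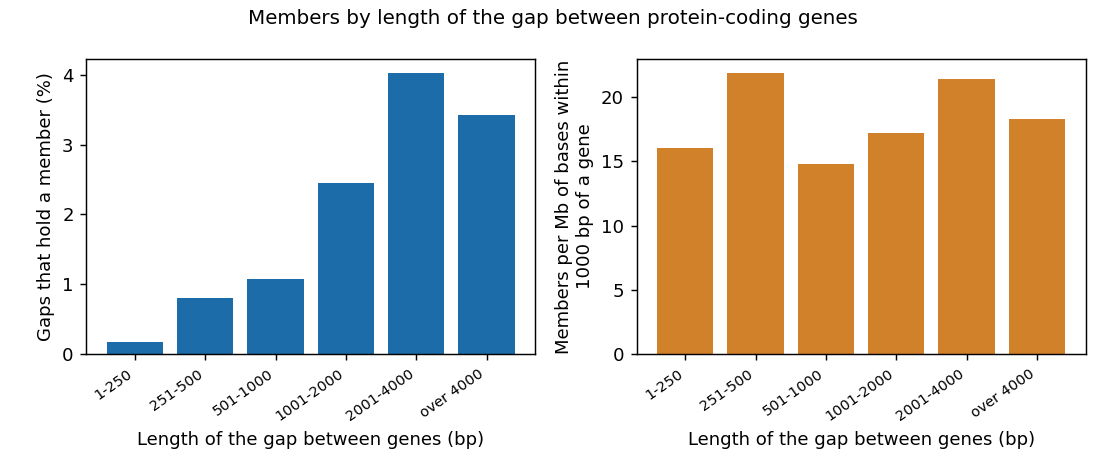
Flanking peaks by length of the gap between protein-coding genes (horizontal axis, bp). Left, percent of gaps that hold a flanking peak, which goes from 0.176% to 4.03% before 3.42% in the longest class; right, flanking peaks per Mb of bases within 1000 bp of a gene, which lies between 14.8 and 21.9.

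In short gaps a peak cannot be given to 1 gene. A gene lay within 1000 bp on both sides of 122 flanking peaks (27.1%), close to the 29.8% of bases in this position. The median scores were 102 in list 1 and 124 in list 2 for these, and 139 and 108 for the 329 with a gene on 1 side only. The lists thus ordered these kinds of gap in opposite ways. At the 10 flanking peaks in gaps up to 250 bp the list 2 peak reached both genes each time. Peak width fixes this, since the narrowest list 2 peak among the flanking peaks is 664 bp.

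The nearest genes numbered 441, which is 1.61% of the 27444 protein-coding genes, and 563 genes (2.05%) were the nearest on either side within 1000 bp. On chromosomes 1 to 5 the shares with the nearest end to a flanking peak were 1.63%, 1.64%, 1.56%, 1.67% and 1.55%, so no chromosome stood out. The nearest genes had a median length of 2318 bp, against 2078 bp for all protein-coding genes, and 40.8% had over 1 RefSeq transcript, against 39.0%. The gaps on their sides were longer, with a median of 3256 bp for both together against 1855 bp for all genes. Genes of other types lay under 29 midpoints (6.43%), 26 of them with a long non-coding RNA gene, and such genes cover 6.66% of the bases in question.

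The 20 flanking peaks with the best mean rank over both lists had list 1 scores from 404.39 to 1949 and list 2 scores from 359.31 to 2301.27. They lay at 19 genes, since BRG3 had a pair of them, and were wide, with a median of 2060 bp in list 2. Of these, 11 lay below and 9 above the nearest gene, and 4 reached into both neighbours. Sides and distances are those of list 2. By the list 1 midpoint, the peaks at RABA1d, IAA9, BRG3 (both), PER4, BTI3, CIPK15, JAZ6 and AT3G14870 lay inside a gene. Those at SHOT1, LBD37 and AT3G60520 lay farther than 1000 bp from one, and the rest were again flanking.

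The highest flanking peak spanned chromosome 5, 25804494 to 25806925, with scores of 1949 in list 1 and 2301.27 in list 2. It ranked 2 in each whole list. Its midpoint stood 729 bp above AT5G64550 and 989 bp below MGT9, a magnesium transporter gene, and it covered the whole gap of 1717 bp and ran into both genes. A peak at chromosome 4, 10320850 to 10322396, had scores of 572.13 and 969.62 and was centred 50 bp above RABA1d, a small GTPase of vesicle traffic. The gap there is only 486 bp, so AT4G18810 was reached too.

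Of the 7 auxin genes with a flanking peak, IAA9 and TIR1 were in this group. At IAA9, an Aux/IAA repressor that auxin perception removes, the peak spanned chromosome 5, 26252656 to 26254055, with scores of 534.77 and 812.97, and was centred 53 bp below the gene, in the long non-coding RNA gene AT5G09425. The TIR1 peak, at chromosome 3, 23275756 to 23277957, had scores of 768.38 and 503.6 and was centred 226 bp above the gene for this auxin receptor. JAZ6, a repressor of jasmonate signalling, had a peak at chromosome 1, 27275661 to 27278690, with scores of 444.55 and 473.67, 613 bp above the gene. The gene on the far side of the midpoint was 6395 bp away at IAA9 and 5727 bp away at TIR1, while the JAZ6 list 1 peak touched the next gene as well.

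LBD37, a repressor of nitrogen-responsive and anthocyanin genes, had the widest flanking peak in list 2, 4287 bp long at chromosome 5, 26900765 to 26905051. Its scores were 653.92 and 593.35, and the midpoint stood 958 bp below the gene. The 2 next-widest were centred above AT5G65300 (scores 920.72 and 534.58), in the gap it shares with the homeodomain gene HB5, and above AT5G62350 (350.29 and 221.71). The peak at AT5G65300 also covered the whole of that gene in both lists. Wide peaks like these spread over gaps whose neighbours are kilobases apart, so the nearest end is a weaker guide for them.

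BRG3, which encodes a RING-type ubiquitin ligase relative, had a peak on each side. The one below, at chromosome 3, 4119050 to 4122826, scored 390.54 in list 2, and the one above, at 4123052 to 4125169, scored 479.9. In list 1 a single peak of 6852 bp with a score of 622.09 covered both and the gene between them. The other named peaks of this rank, with list 1 and list 2 scores, were SHOT1 (618.35 and 841.29), AT5G08139 (564.02 and 725.08), AT1G01355 (444.68 and 653.3), AT3G63460 (404.39 and 606.99), AT3G60520 (458.62 and 453.36) and AT3G14870 (687.22 and 359.31). At AT1G01355 the next gene is RCAR1, also known as PYL9, an abscisic acid receptor gene 1500 bp from the midpoint.

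Genes for enzymes, a kinase and membrane proteins completed this group. PER4, a class III peroxidase gene, and THH1 share a gap of 294 bp whose peak scored 490.02 and 537.24. AGO6, an argonaute of RNA-directed DNA methylation, had scores of 411.75 and 648.5 at 78 bp from the gene. BTI3, a reticulon-like protein gene, had 498.1 and 528.01. ATTPPA, a trehalose-6-phosphate phosphatase gene, had 496.7 and 452.1, and CIPK15, a calcium-regulated kinase gene, had 508.62 and 416.33.

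**Figure D4:**
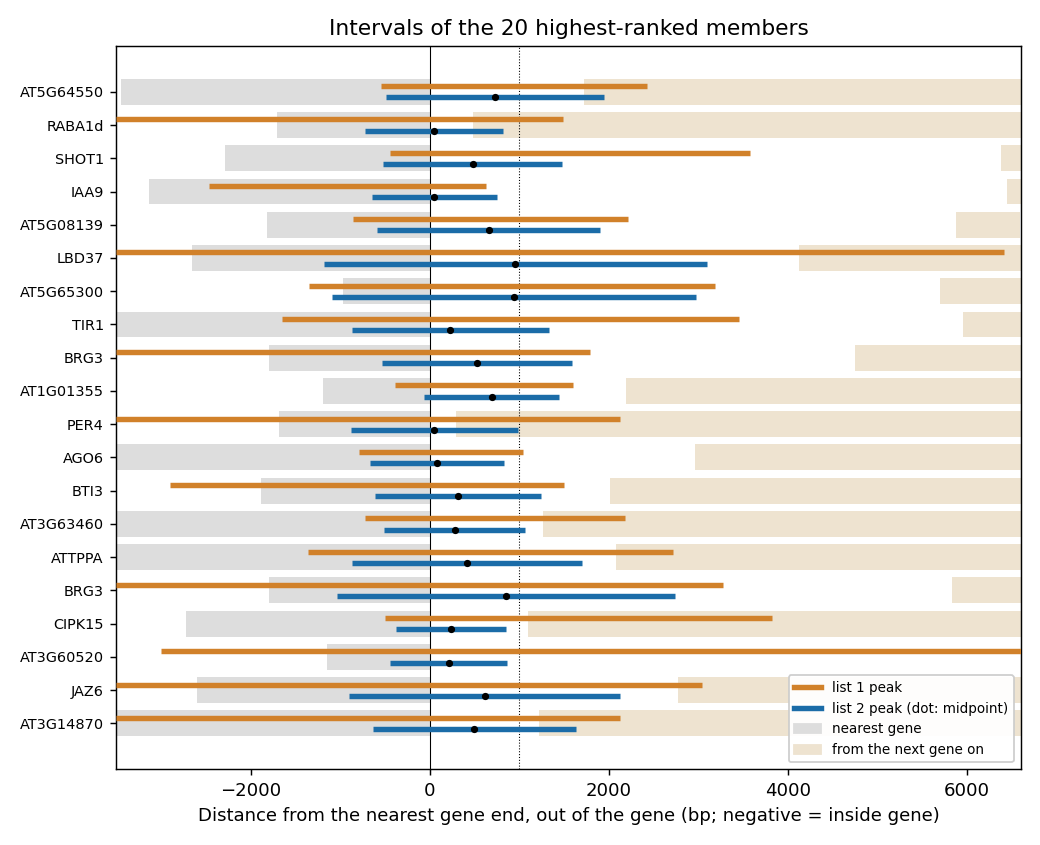
Intervals of the 20 flanking peaks with the best mean rank, aligned at the nearest gene end (0 on the horizontal axis, bp, negative inside the gene), with list 1 in orange and list 2 in blue; lines that meet the frame run on beyond it. Grey is the nearest gene, beige starts at the next gene, and the dotted line is the limit of 1000 bp; 4 of the list 2 peaks reach both genes.

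Of the nearest genes, 10 had a flanking peak at each end, 1 below and 1 above, and none had more. Besides BRG3 these were SPL8, SOFL1, BEE3, PP2CA, HAT3, MYB74, AT1G25550, AT5G20700 and AT5G40460. At SPL8, a regulator of anther development, the lower peak scored 256.97 and 556.28 and the upper 61.47 and 129.1. At PP2CA, a phosphatase that restrains abscisic acid signalling, the lower scored 101.71 and 78.56 and the upper 95.64 and 108.93. MYB74 had 398.62 and 223.31 below, and 55.44 and 160.69 above. In these 3 cases list 1 also has separate peaks, whereas at the other 7 genes 1 list 1 peak spanned both ends.

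Pathway genes were followed through 20 lists of genes. Together they hold 621 genes, of which 50 (8.05%) had the nearest end to a flanking peak, beside 1.61% of all protein-coding genes. The gaps around list genes are also longer, with a median of 4377 bp on both sides together against 1855 bp for all genes, and the part of gap length in these counts was not tested. The 50 had median scores of 172 in list 1 and 132 in list 2, beside 127 and 111 for all flanking peaks. Since the lists were chosen with results of these data known, their counts are descriptions.

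**Figure D5:**
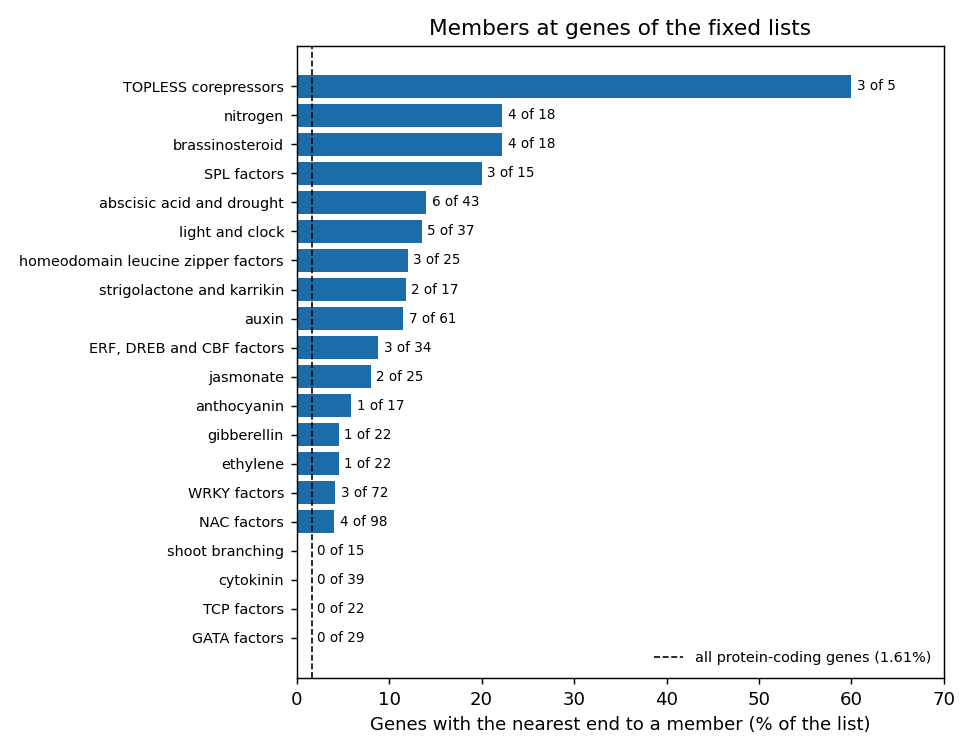
Share of each gene list (horizontal axis, percent) whose genes had the nearest end to a flanking peak, with the counts beside the bars; the dashed line is the 1.61% of all protein-coding genes. TOPLESS corepressors stand at 3 of 5, and 4 lists have none.

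Of the 5 TOPLESS corepressor genes, 3 had the nearest end to a flanking peak, and this count rests on leaving out genes that do not code for protein. The midpoints at TPL and TPR2 lay in the long non-coding RNA genes AT1G05197 and AT3G03375, and with nuclear genes of every type the count was 1 of 5. TOPLESS proteins silence genes when a DNA-bound factor recruits them, and SMXL proteins carry a motif that binds them. TPR1 had scores of 233.77 and 344.4 at 230 bp above the gene, TPL 206.58 and 264.99 at 291 bp above, and TPR2 116.69 and 160.51 at 292 bp below. The list 2 score was the higher at all 3, and distances were alike. TPL shared its gap of 3208 bp with a second flanking peak, nearest to AT1G15757, with scores of 150.2 and 72.78. Over all 5 TOPLESS genes, 1 held a replicated peak centred inside it.

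Strigolactone and karrikin genes had 2 of 17, or 1 with nuclear genes of every type. KAI2, the karrikin receptor gene, shares a gap of 470 bp with AT4G37480, and its peak scored 77.05 and 102.49. SMXL8 had scores of 116.5 and 20.72, 341 bp below the gene. The latter is the lowest score in list 2 and the only one under 50 in either list. SMXL6 and SMXL7 had peaks centred inside the gene and are therefore not among the flanking peaks. The SMXL6 locus, with a score of 3100 in both lists, is also carried by the transgene. That score is the highest of each list, and whether the scale stops there is not stated. None of the 15 shoot branching genes had a flanking peak. At BRC1, which restrains bud growth, the nearest peak was centred 2362 bp away in list 1 and 2296 bp in list 2, beyond the limit. TCP1 and PAP1 (MYB75) had none nearer than 33372 bp and 5578 bp.

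Auxin genes had 7 of 61, spread over perception, repressors and response factors. Beside IAA9 and TIR1 these were ARF2, an auxin response factor gene (521.32 and 187.27, 215 bp below), the Aux/IAA genes IAA16 (130.2 and 288.16), IAA26 (295.58 and 84.74) and IAA3 (107.05 and 160.92), and the receptor gene AFB5 (66.72 and 94.01, 49 bp below). ARF2 shared both its gap and its list 1 peak with AT5G61997, whose flanking peak scored 134.29 in list 2. The median scores of the 7 genes were 296 in list 1 and 187 in list 2. Their number was 2 with reciprocal overlap of 50%. It was 4 when the list 1 midpoint also had to lie in the same class, and 5 to 9 under the other settings.

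Abscisic acid genes had 6 of 43, most of them in signal perception. The count was 2 with reciprocal overlap of 50%, 1 with scores of at least 100 in both lists and 3 at list 1 midpoints. It was 2 when the list 1 midpoint also had to lie in the same class, and 4 to 7 under the other settings. The receptor gene PYL4 scored 70.5 and 92.2. The protein phosphatases that these receptors inhibit had PP2CA with the scores given above, HAI2 (100.74 and 76.81) and HAB2 (74.33 and 79.04). RD26, a NAC factor of drought response, was highest (361.72 and 350.73, 482 bp above the gene), and its peak covered the gap of 1377 bp up to AT4G27415. CYP707A2, a gene of abscisic acid inactivation, had 171.09 and 82.36. Apart from RD26 the scores were below the median of all flanking peaks in list 2, and the medians of the 6 were 98.2 and 87.3.

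Brassinosteroid genes had 4 of 18. BEE1 and BEE3 encode related bHLH factors of the early response. BEE1 scored 268.6 and 205.77, and BEE3 had a list 1 peak of 270.99 over 2 list 2 peaks, 85.85 above and 57.61 below. DWF4, a gene of hormone synthesis, had 219.97 and 136.36, and BAS1, a gene of hormone inactivation, 74.32 and 64.28. All 4 scored higher in list 1. BAK1, the co-receptor gene, lay 701 bp from a midpoint whose nearest gene was AT4G33440.

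Light and clock genes had 5 of 37, with 4 from the clock, and in list 1 alone 8 of 37. LHY (184.26 and 168.61) and CCA1 (63.5 and 213.13) encode related morning factors, and both peaks lay in short gaps, of 572 bp shared with UMAMIT28 and 449 bp shared with PSI-P. RVE1, a related MYB-like factor gene, had 129.2 and 115.83, and ELF4, of the evening complex, 111.88 and 54.62. PIF5, listed as PIL6 and known as a phytochrome-interacting factor, had 172.59 and 228.79. LUX, the DNA-binding part of the evening complex, lay 320 bp from a midpoint centred 162 bp from AT3G46630 (190.28 and 377.53).

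Nitrogen genes had 4 of 18, and these were regulators. In list 1 alone, by its own midpoints, there were 2. The count was 1 with reciprocal overlap of 50%, and 1 when the list 1 midpoint also had to lie in the same class. It was 2 to 5 under the other settings. LBD37, LBD38 (263.6 and 251.33) and LBD39 (77.1 and 123.82) form a group of repressors of nitrate-responsive genes, and each had a flanking peak by the list 2 midpoint. By the list 1 midpoint, the LBD37 peak lay farther than 1000 bp from a gene and the LBD38 peak inside one. Of this group, only the LBD39 peak was again flanking. ANR1, listed as AGL44, a MADS-box factor of root growth on nitrate, had 183.68 and 390.97 at 146 bp below the gene, in a gap of 36658 bp, the longest gap that held a flanking peak. LBD37 alone stood for the anthocyanin list (1 of 17), which had 0 in list 1 alone.

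The remaining hormone lists had few. Jasmonate genes had 2 of 25, JAZ6 and JAZ5 (158.2 and 208.41), both repressors. Gibberellin genes had 1 of 22, the receptor gene GID1B (328.72 and 183.73), and ethylene genes 1 of 22, EBF2, which encodes an F-box protein that removes EIN3 (139.54 and 57.48). Cytokinin genes had 0 of 39, although AHK3, a receptor gene, stood 132 bp from a midpoint that was nearer to AT1G27330 (68.29 and 50.89). These counts changed in single lists without the overlap rule, each placed by its own midpoints. In list 1 alone they were 0 for jasmonate, 2 for gibberellin, 0 for ethylene and 5 for cytokinin, and in list 2 alone jasmonate had 4.

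Among transcription factor families the counts varied. SPL factors had 3 of 15, SPL8, SPL11 (229.89 and 79.26) and SPL12 (57.78 and 75.19). The SPL11 peak lay almost midway in a gap of 1088 bp, 541 bp from SPL11 and 548 bp from SPL10, and SPL1 lay 929 bp from a midpoint nearer to PTI1-4. Homeodomain leucine zipper factors had 3 of 25, HAT3 (208.81 and 162.76 below it), HB-1 (199.45 and 117.33) and HB12 (106.76 and 66.57). ERF, DREB and CBF factors had 3 of 34 (5 in list 1 alone), the repressor gene ERF8 (172.16 and 373.65) and the cytokinin response factor genes CRF3 (107.66 and 128.38) and CRF2 (71.81 and 68.25).

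NAC factors had 4 of 98, and this share of 4.08% is nearest to that of all genes among the lists with a flanking peak. NAC062, a membrane-bound factor of stress response, led with 349.56 and 639.34 at 85 bp above the gene, followed by RD26 (NAC072), NAC049 (183.71 and 179.94) and NAC019 (283.3 and 99.5). WRKY factors had 3 of 72, with WRKY28 (80.37 and 120.66), WRKY47 (74.85 and 66.37) and WRKY6 (68.25 and 52.55), none of whose list 2 peaks touched a gene. In list 1 alone WRKY factors had 6. TCP factors had 0 of 22, with 1 in list 2 alone, and GATA factors 0 of 29.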

How the data were processed

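The deposited files are 2 peak lists in BED format, 1 per replicate, each of SMXL6-HA against the control of the same number, per the labels. The submitters' processing notes name the aligner BWA (0.7.10-r789), the peak caller MACS (1.4.2), SAMtools and the build TAIR10, without parameters or duplicate handling. The score in column 5 is the authors' own deposited value per peak, with no stated scale. Read depth is unknown, and broader list 1 peaks overlap list 2 more easily. Peak starts were counted from 1. Gene ends came from a RefSeq table of TAIR10.1 with 37899 nuclear genes, which gives no strand or sequence; the planned strand, neighbour-orientation and motif results were not run. Distances run from the peak midpoint to the gene end and take the nuclear sequence to be the same in both releases. Classing was tested on simulated peaks. Of 652 list symbols, 641 matched. Named were the 20 best by mean rank, the best 4 above and below genes and in each list, 6 fixed genes, and those at the limits or of extreme width. Members and lists were chosen with earlier results of these data known. Python 3.11.15, pandas 2.3.3 and numpy 2.4.6 were used. Alternatives were other overlap, score, distance, gene and replicate settings.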

Additional observations from a re-analysis of the deposited data

How the results depend on the processing

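No paired analysis was possible because each replicate pair gives 1 peak list and no result comes from a test. The number of flanking peaks was 451. It was 213 with reciprocal overlap of 50%, 194 with scores of at least 100 in both lists, and 257 when the list 1 midpoint also had to lie in the same class, a setting chosen after seeing the data. List genes with a flanking peak, 50 in all, numbered 26, 27 and 28 under these settings. Each of these settings keeps a subset of the peaks. Leaving out a replicate, by requiring no overlap, gave 572 to 616 peaks and a median distance of 298 to 335 bp. It gave 57 to 59 list genes, 51.1% to 54.2% above the gene and 27.9% to 28.7% with genes on both sides. In list 1 alone the median score was 93.1, against the list 1 median of 127 for the flanking peaks. In list 2 alone it was 96.7, against 111. The median score was 126 with reciprocal overlap, 212 with scores of at least 100 and 123 at list 1 midpoints, where it is the list 1 score. Limits of 500 and 2000 bp moved the median distance to 186 and 471 bp and the share with genes within the limit on both sides to 17.1% and 43.6%, which the limits themselves set. That share was 32.4% with reciprocal overlap and 35.9% with genes of every type. The total hides changes in the 20 gene lists, whose counts are small. By over 1.5 times, 9 of them moved without replicate 2 (cytokinin from 0 to 5, WRKY from 3 to 6, light and clock from 5 to 8, nitrogen from 4 to 2), 2 without replicate 1, 10 at list 1 midpoints and 3 with genes of every type, among them TOPLESS from 3 to 1. By the same measure, 8 lists moved with reciprocal overlap, 7 with scores of at least 100 and 9 with the list 1 midpoint in the same class. Limits of 500 and 2000 bp moved 6 and 5 lists by that much. Pericentromeres held 5 flanking peaks, so leaving them out changed no list by that much. The share above the gene was 53.9% and ran from 49.5%, with scores of at least 100, to 57.2%, with the list 1 midpoint in the same class, over settings that have peaks in common.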
